A study of Mus musculus with 3 samples.

Results

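Transcripts of 9 genes of the vascular endothelial growth factor (VEGF) system were followed in single cells of mouse pancreas, 9 of the 55450 genes in the count tables. They were taken by gene symbol alone. Kdr, Flt1 and Flt4 encode the receptor tyrosine kinases VEGFR2, VEGFR1 and VEGFR3. Nrp1 and Nrp2 encode neuropilins, co-receptors that bind VEGF and class 3 semaphorins. Vegfa, Vegfb, Vegfc and Pgf encode secreted ligands. The 5 receptor genes were read mainly in endothelial cells, which line blood and lymph vessels, and the 4 ligand genes in each cell type that could be their source.

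The groups compared had 1 library each: a sedentary group whose treatment is given as none, a sedentary group given as diabetic, and an exercise group given as diabetic-Exercise. The series names male db/db mice, 6 weeks old when trained on a treadmill. A db/db mouse has no functional leptin receptor and develops obesity and diabetes. The genotype, sex and age of the none group, the length of training and the number of animals behind each library are unknown from these labels. Groups are always listed below in the order none, diabetic sedentary, diabetic exercise. With 1 library in a group no test between groups is possible. The ranges in brackets after levels and ratios are exact Poisson 95% intervals, and those after shares of cells are exact binomial ones. They cover counting error only, not the spread between animals.

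VEGF-A, made by epithelial and other tissue cells, signals to blood vessels mainly through VEGFR2. VEGFR1 binds VEGF-A, VEGF-B and placental growth factor tightly but signals weakly, and it can hold ligand away from VEGFR2. VEGF-C acts on lymphatic endothelium through VEGFR3, with neuropilin-2 as a co-receptor. In the pancreas, VEGF-A from epithelial and islet cells keeps capillaries dense and fenestrated.

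The libraries held 9958, 12743 and 18433 barcodes and 54128454, 80185752 and 45209034 UMIs (unique molecular identifiers, each counting 1 captured RNA molecule). Of these, 8711, 11020 and 15069 cells were kept. The exercise library was the shallowest per barcode, with a median of 1887 UMIs against 3951.5 and 4640. Pairs of libraries shared 32, 43 and 61 barcode sequences, and 0 were in all 3. Clusters were built without the 9 genes and named from marker genes. The tissue label fits its markers: acinar enzyme transcripts held a median of 73.2%, 74.5% and 68.2% of UMIs per barcode. Endothelial-like cells numbered 123, 550 and 390, and all 25 endothelial markers, among them Pecam1 and Cdh5, were detected in each library. Acinar enzyme transcripts held 47.7%, 34.1% and 36.3% of the UMIs of endothelial-like cells, and their median mitochondrial share was 1.24%, 4.48% and 7.78%. Erythroid markers, mainly haemoglobin genes, summed to 24.8, 1599 and 88.7 CPM in them, with 4, 1 and 2 of 7 at 0. Their part in the receptor ratios was not tested. No cluster was named as islet cells. One cluster of 6, 67 and 15 cells led by islet hormone genes was left unnamed. In the exercise library 9494 of 15069 kept cells lay in unnamed clusters rich in acinar RNA.

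All 9 genes lie on GRCm38. Kdr (VEGFR2) is at chr5:75932827-75978458 on the minus strand. Flt1 (VEGFR1) is at chr5:147561604-147726011 on the minus strand. Flt4 is at chr11:49609263-49652739, Nrp1 at chr8:128358604-128503363 and Nrp2 at chr1:62703285-62818695, each on the plus strand. Vegfa is at chr17:46016993-46032369 and Vegfb at chr19:6982473-6987651, both on the minus strand. Vegfc is at chr8:54077606-54187096 on the plus strand, and Pgf at chr12:85166635-85177790 on the minus strand. The Kdr and Flt1 promoters are shown because both genes carried most of the receptor UMIs and were low or high in the same endothelial clusters. The 250 bases before the start site, from RefSeq on GRCm38.p6, are chr5:75978456-75978705 for Kdr and chr5:147726012-147726261 for Flt1, both on the minus strand. They are written 5′ to 3′ with motif matches in capitals.
Kdr: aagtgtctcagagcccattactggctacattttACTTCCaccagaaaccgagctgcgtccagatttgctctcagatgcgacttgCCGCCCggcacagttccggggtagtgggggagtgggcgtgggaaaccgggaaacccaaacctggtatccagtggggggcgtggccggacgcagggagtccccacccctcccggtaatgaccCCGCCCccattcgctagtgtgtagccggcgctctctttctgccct
Flt1: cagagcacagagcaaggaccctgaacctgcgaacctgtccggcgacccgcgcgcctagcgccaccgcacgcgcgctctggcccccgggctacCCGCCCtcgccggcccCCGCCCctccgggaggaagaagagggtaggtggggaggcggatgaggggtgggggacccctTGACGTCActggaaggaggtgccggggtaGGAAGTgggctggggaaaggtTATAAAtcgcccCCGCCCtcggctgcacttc
Short motifs were searched on both strands, and no match overlaps that of another motif in these windows. TATAAA, the TATA box, positions the polymerase. TGACGTCA is the cyclic AMP response element. The sequence GGGCGG is the GC box, bound by Sp factors. An ETS core was written GGAAGT, since ETS factors are regulators of many endothelial genes. A site for GATA factors was written AGATAA, and the hypoxia element as ACGTGC. The Flt1 window holds a TATA box 31 bases, an ETS core 52 bases and a cyclic AMP element 81 bases before the start site, plus 3 GC boxes. The Kdr window holds 2 GC boxes, 45 and 166 bases before the start site, and an ETS core at 217, and neither a TATA box nor a cyclic AMP element. No GATA or hypoxia motif is in either window. Among 32851 mouse promoter windows of 300 bases, 13.6% held the TATA box, 1.79% the cyclic AMP element, 35.7% the GC box, 23.8% the ETS core, 11.2% the GATA motif and 5.91% the hypoxia element. These are letter matches and no evidence of a bound factor.

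Kdr and Flt1 transcripts were held almost wholly by endothelial-like cells. Those cells carried 88.4%, 94.9% and 88.3% of the Kdr UMIs of kept cells and 94.4%, 95.8% and 89.5% of the Flt1 UMIs. Levels are given as CPM, the count scaled to 1e6 UMIs of the class after TMM scaling. Kdr reached 1513 CPM (1389 to 1645), 1572 (1516 to 1630) and 884 (825 to 945), from 550, 2962 and 847 UMIs. The exercise library was thus the low one, and the intervals of the other 2 overlapped. Kdr was level between the sedentary libraries, at a ratio of 1.04 (0.948 to 1.14) of diabetic over none. It was 0.562 (0.520 to 0.607) in exercise over diabetic sedentary.

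Flt1, the decoy-like receptor, showed the same order. Its level was 2044 CPM (1900 to 2197), 2240 (2173 to 2309) and 1143 (1076 to 1212), from 743, 4220 and 1095 UMIs. The diabetic over none ratio was 1.10 (1.01 to 1.19) and the exercise over diabetic sedentary ratio 0.510 (0.477 to 0.545). The balance of the 2 receptors was nearly fixed: Kdr made up 42.5%, 41.2% and 43.6% of the Kdr and Flt1 UMIs. Cells with neither transcript were 7.32% and 8.73% of endothelial-like cells in the sedentary libraries and 35.4% in the exercise library. These shares were not brought to equal depth, and median depth was 2808, 2496 and 1889.5 UMIs per endothelial-like cell.

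Nrp1, the co-receptor that joins VEGFR2 complexes, stood at 674 CPM (592 to 764), 621 (585 to 657) and 425 (384 to 468) in endothelial-like cells. Its ratios were 0.921 (0.801 to 1.06) for diabetic over none and 0.684 (0.610 to 0.767) for exercise over diabetic sedentary. Flt4, the lymphatic VEGF-C receptor, gave 35, 124 and 38 UMIs, or 96.3 CPM (67.1 to 134), 65.8 (54.7 to 78.5) and 39.7 (28.1 to 54.4). Its ratio was 0.684 (0.466 to 1.03) in diabetic over none and 0.602 (0.407 to 0.873) in exercise over diabetic sedentary. Lymphatic endothelial markers, 8 of 8 detected in each library, summed to 501, 672 and 250 CPM in the same cells. With cells holding a Prox1, Mmrn1, Ccl21a or Reln UMI left out, both Flt4 ratios kept their direction. How much of their size the lymphatic cells carry was not tested. Nrp2, the co-receptor of lymphatic and venous endothelium, gave 20, 147 and 51 UMIs, or 55.0 CPM (33.6 to 85.0), 78 (65.9 to 91.7) and 53.2 (39.6 to 70.0). For Nrp2 the diabetic sedentary library was the highest, and the ratios were 1.42 (0.886 to 2.39) and 0.682 (0.486 to 0.944).

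The share of endothelial-like cells with a Kdr, Flt1 or Nrp1 transcript was also lowest in the exercise library. At least 1 Kdr UMI was seen in 85.4%, 79.3% and 44.6% of them, and at least 1 Flt1 UMI in 85.4%, 86.5% and 57.4%. Nrp1 was seen in 66.7%, 68.0% and 39.7%. Median depth was 2808, 2496 and 1889.5 UMIs per endothelial-like cell, so shares were also taken after thinning each cell to 1000 UMIs, which left out 6, 33 and 65 shallower cells. Kdr was then in 65.8%, 66.7% and 38.5% of cells, and Flt1 in 71.8%, 79.5% and 46.5%. The exercise library remained the low one at equal depth. As background, with all UMIs, Kdr was seen in 0.490%, 1.20% and 0.646% of acinar-like cells, whose median depth was 4662, 6684 and 2082 UMIs. For Flt4 the thinned shares were 6.84%, 5.61% and 3.38%, and for Nrp2 4.27%, 6.0% and 4.62%, where few cells carry a count.

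**Figure D1:**
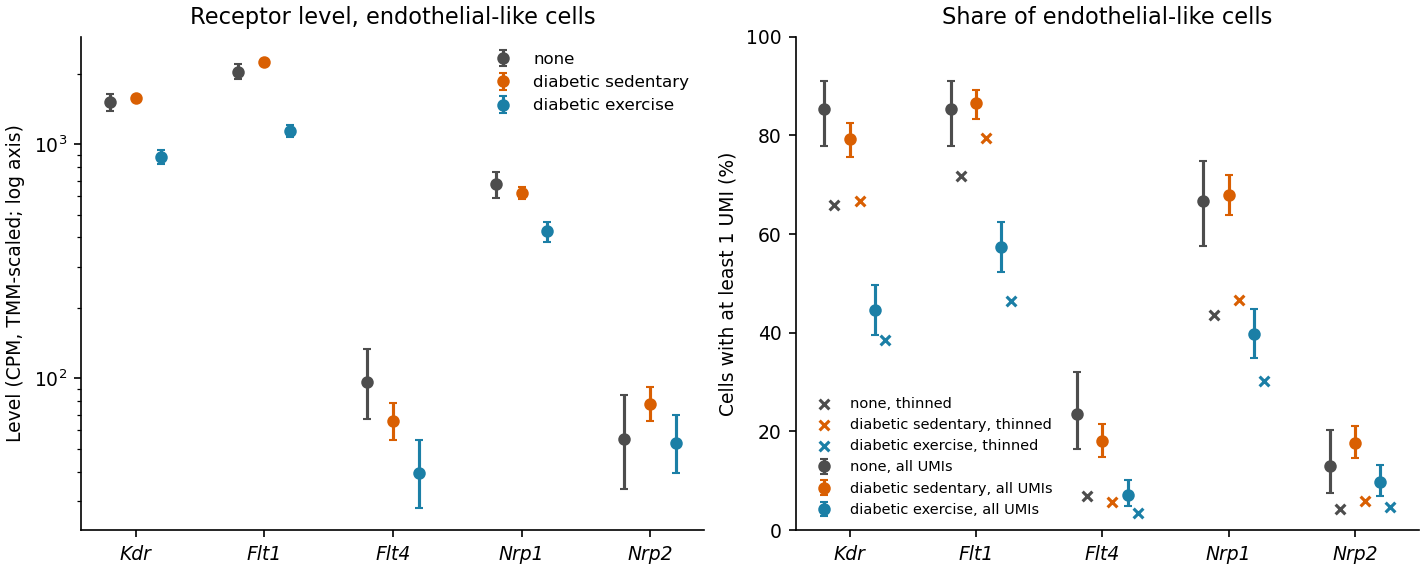
Receptor transcripts in endothelial-like cells of the 3 libraries. Left, level in CPM on a log axis with Poisson 95% intervals; right, percent of cells with at least 1 UMI, with all UMIs (circles, exact binomial 95% intervals) and after thinning to 1000 UMIs per cell (crosses). Kdr, Flt1, Nrp1 and Flt4 are lowest in the exercise library, and Nrp2 is highest in the diabetic sedentary library.

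Among all 8160 genes with at least 20 UMIs over the diabetic sedentary and exercise libraries, 16.2% were at least 1.5-fold lower in exercise and 11.7% at least 1.5-fold higher. Of the 9 VEGF genes, 8 had that many UMIs in endothelial-like cells; Pgf, with 10, did not. Kdr, Flt1 and Flt4 were past 1.5-fold on the lower side. Vegfa and Vegfc were past it on the higher side, from 12 and 36 UMIs in diabetic sedentary and 20 and 35 in exercise. For diabetic sedentary over none, 21.1% of 7299 genes were at least 1.5-fold higher and 13.9% at least 1.5-fold lower. Of the VEGF genes only Vegfc was past that line, higher from 36 UMIs against 1, and it entered this count through the diabetic library alone.

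Endothelial-like cells formed 2 clusters that carried very different receptor levels and took different shares of each library. The larger, cluster 11, held 93, 424 and 153 cells and was led by Rgcc, the haemoglobin gene Hbb-bs, Igfbp3, Thrsp and Cxcl12, with capillary markers summing to 18579 CPM. The smaller, cluster 13, held 30, 126 and 237 cells and was led by Glycam1, Ccl21a, Mgp, Vwf and Cytl1, with capillary markers at 3400 CPM. Cells of cluster 13 had a median of 54.7% acinar RNA and 1440 UMIs, against 29.7% and 2739 UMIs in cluster 11. The leading genes of cluster 13 need not mark all of its 393 cells. When all endothelial-like cells were clustered again, the sub-clusters led by Glycam1, by Ccl21a and by Klk10 held 76, 25 and 16 cells. A sub-cluster led by acinar transcripts held 246, of which 141 were from exercise. Kdr was 1938, 1886 and 1619 CPM in cluster 11 and 279, 230 and 144 CPM in cluster 13. Flt1 was 2641, 2669 and 2000 CPM in cluster 11 and 312, 406 and 280 CPM in cluster 13. Both receptors were therefore several times higher in cluster 11 in every library, and the exercise library had most of its endothelial-like cells in cluster 13.

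Within each cluster the exercise over diabetic sedentary difference was smaller than over the whole class for most receptors. In cluster 11 the ratio was 0.858 (0.792 to 0.929) for Kdr, 0.749 (0.698 to 0.804) for Flt1, 1.01 (0.890 to 1.14) for Nrp1, 0.849 (0.534 to 1.31) for Flt4 and 0.550 (0.314 to 0.912) for Nrp2. In cluster 13 it was 0.629 (0.450 to 0.877) for Kdr, 0.691 (0.542 to 0.880) for Flt1, 0.810 (0.536 to 1.23) for Nrp1, 0.357 (0.157 to 0.763) for Flt4 and 0.574 (0.353 to 0.924) for Nrp2. With the 2 clusters weighted in every library as in diabetic sedentary, the ratios were 0.850 for Kdr, 0.747 for Flt1, 0.996 for Nrp1, 0.744 for Flt4 and 0.563 for Nrp2. With 5 finer sub-clusters weighted the same way they were 0.963, 0.829, 1.04, 0.940 and 0.523, against 0.606, 0.541, 0.711, 0.555 and 0.709 without weights over the same cells. Those 5 are sub-clusters 0 to 4, with at least 10 cells in both diabetic libraries. They leave out the lymphatic endothelial-like cells and the 16 cells found in exercise alone, so these are not values for the whole class. The part of acinar RNA in the different makeup of the libraries was not tested.

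Sub-clusters 1, 2 and 6, of 246, 230 and 26 cells, were led by acinar or haemoglobin transcripts. The others were led by genes of vessel types or of antigen presentation. Sub-cluster 6, with 24 cells from exercise, also had the ductal markers Krt8, Spp1, Atp1b1 and Krt18 among its leading genes. Its ductal markers summed to 7016 CPM, above its capillary markers at 2581 and artery markers at 3562 CPM. In sub-cluster 0, led by Fscn1 and the capillary genes Rgcc and Car4, Kdr was at 1730, 2353 and 2082 CPM in 24, 241 and 52 cells, the highest level of any sub-cluster in both diabetic libraries but not in none. Kdr was 1964, 1046 and 1277 CPM in sub-cluster 2, which also carried haemoglobin, Gal, Hamp2, Tff2 and acinar transcripts. It was 2135, 1359 and 1668 CPM in sub-cluster 3, led by Gja4, Rgs5 and Fbln5. A vein endothelial-like sub-cluster of 2, 19 and 55 cells was led by Glycam1, Madcam1, Vwf, Ackr1 and Selp. Its vein markers summed to 6165 CPM, the highest of any sub-cluster, but its artery and capillary markers summed to 6198 and 7376 CPM. It had 1, 21 and 29 Kdr UMIs, or 228 and 187 CPM in the diabetic libraries. A sub-cluster of 16 cells, all from the exercise library and led by Klk10, Gkn3, Mgp, Cytl1 and the arterial connexin Gja5, held 0 Kdr UMIs, where 3 UMIs would be 43.1 CPM. Flt1 there was 244 CPM (142 to 391), from 17 UMIs.

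The lymphatic endothelial-like sub-cluster of 4, 12 and 9 cells, led by Ccl21a, Mmrn1, Reln and Lyve1, had its own receptor set. It held 4, 22 and 9 Flt4 UMIs, or 319, 626 and 664 CPM, above every other sub-cluster in the same library. Flt1 and Nrp1 were at 0 UMIs in these 25 cells in all 3 libraries. Kdr was present at 399, 541 and 443 CPM and Nrp2 at 240, 313 and 221 CPM. The vein endothelial-like cells were the other Nrp2-rich group, at 326 CPM (220 to 466) in diabetic sedentary and 174 (114 to 253) in exercise, and they held 0 Flt4 UMIs. Acinar transcripts led sub-cluster 1, of 21, 84 and 141 cells, and its Kdr level was 266, 255 and 220 CPM.

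**Figure D2:**
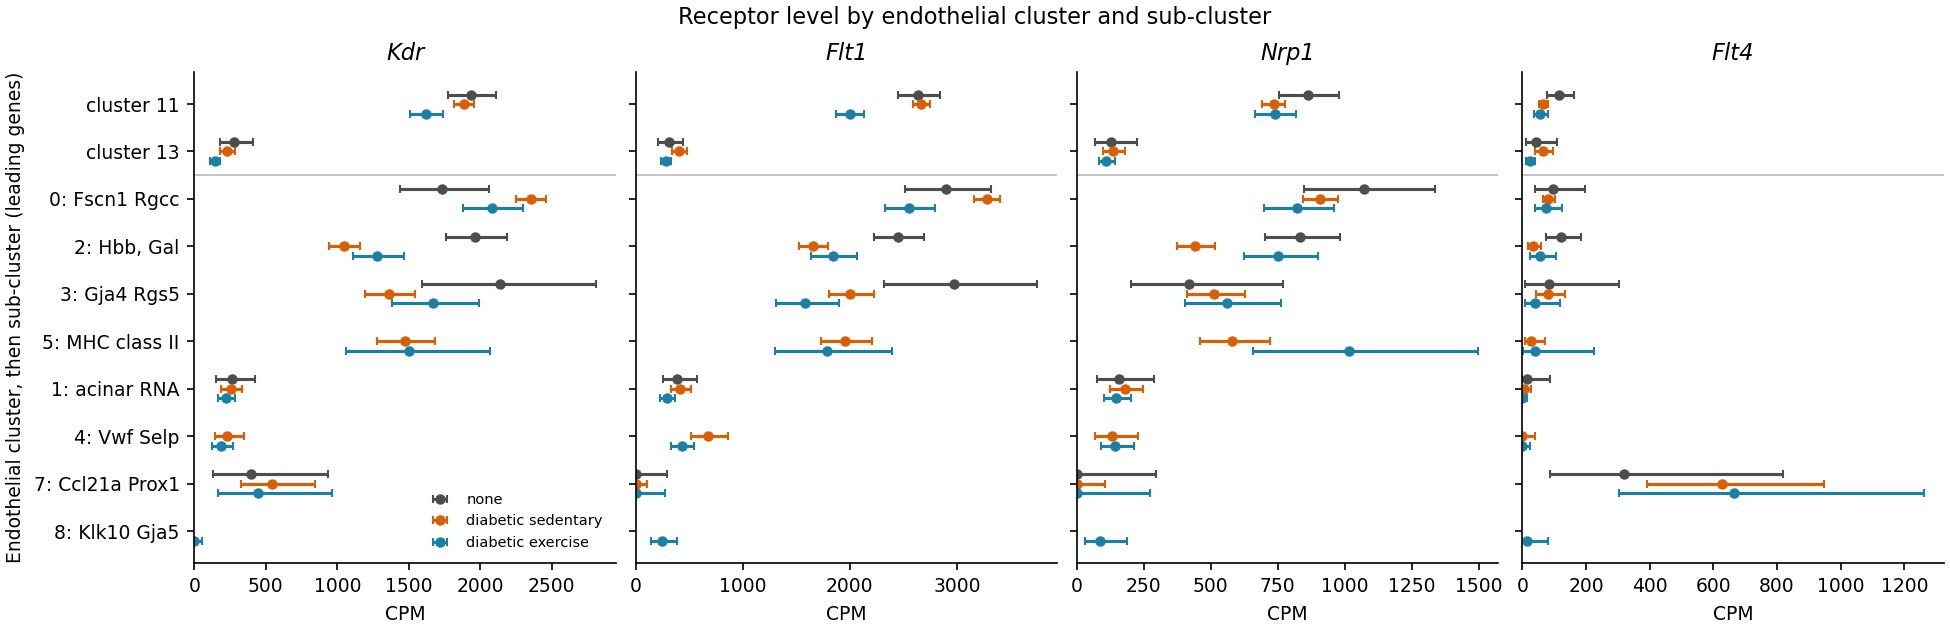
Kdr, Flt1, Nrp1 and Flt4 levels (CPM, with Poisson 95% intervals) in the 2 endothelial clusters and in 8 sub-clusters named by leading genes, 1 colour per library; units of fewer than 4 cells in a library are not drawn. Cluster 11 and sub-clusters 0, 2, 3 and 5 carry most Kdr, Flt1 and Nrp1, and sub-cluster 7, the lymphatic endothelial-like one, has the highest Flt4 level and 0 Flt1 or Nrp1 UMIs.

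Across the 31 sums of 1 cell class in 1 library, the gene whose log2(CPM + 10) was most like that of Kdr was Adgrf5, with a Pearson r of 0.974, followed by Unc45b at 0.957 and Clec14a at 0.951. For Flt1 they were Gpihbp1 at 0.989, Adgrl4 at 0.984 and Dll4 at 0.982. For Nrp1 they were Slfn5 at 0.943, Acvrl1 at 0.925 and its own relative Nrp2 at 0.920. For the ligand Vegfa they were Cyp4f17 at 0.891, Deptor at 0.886 and Tmc4 at 0.867. These sums share libraries, so the values only describe which of 11123 genes had similar patterns.

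Outside the endothelium the receptors differed in reach. Nrp1 was found in fibroblast-like cells at 113 CPM (90.7 to 138), 172 (154 to 192) and 165 (142 to 192), and the diabetic over none ratio there was 1.53 (1.21 to 1.95). Of its 92, 323 and 175 UMIs there, 4, 51 and 33 were in cells with at least 3 UMIs of endothelial markers. Over 13 processing settings the log2 of that ratio ran from 0.47 to 0.96, the lowest being short of 1.5-fold. In macrophage-like cells Nrp1 was 136, 125 and 112 CPM, without a library that stood apart. Ductal-like cells had 4, 48 and 121 Nrp1 UMIs, or 3.31 CPM (0.901 to 8.47), 8.40 (6.19 to 11.1) and 19.3 (16.0 to 23.1), at a ratio of 2.30 (1.63 to 3.29) in exercise over diabetic sedentary. Of the 121 UMIs, 10 were in ductal-like cells that also held at least 3 UMIs of endothelial markers. Nrp2 was level in macrophage-like cells at 45.4, 43.1 and 44.5 CPM and in fibroblast-like cells at 31.8, 28.7 and 24.5 CPM.

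Mesothelial-like cells, which cover the organ surface, carried Kdr without Flt1. In 38, 10 and 15 such cells there were 23, 9 and 10 Kdr UMIs, or 113 CPM (71.4 to 169), 192 (87.7 to 364) and 167 (79.8 to 306), and 0 Flt1 UMIs in each library. Kdr was seen in 28.9%, 50% and 40% of them, well above its share in acinar-like cells.

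**Figure D3:**
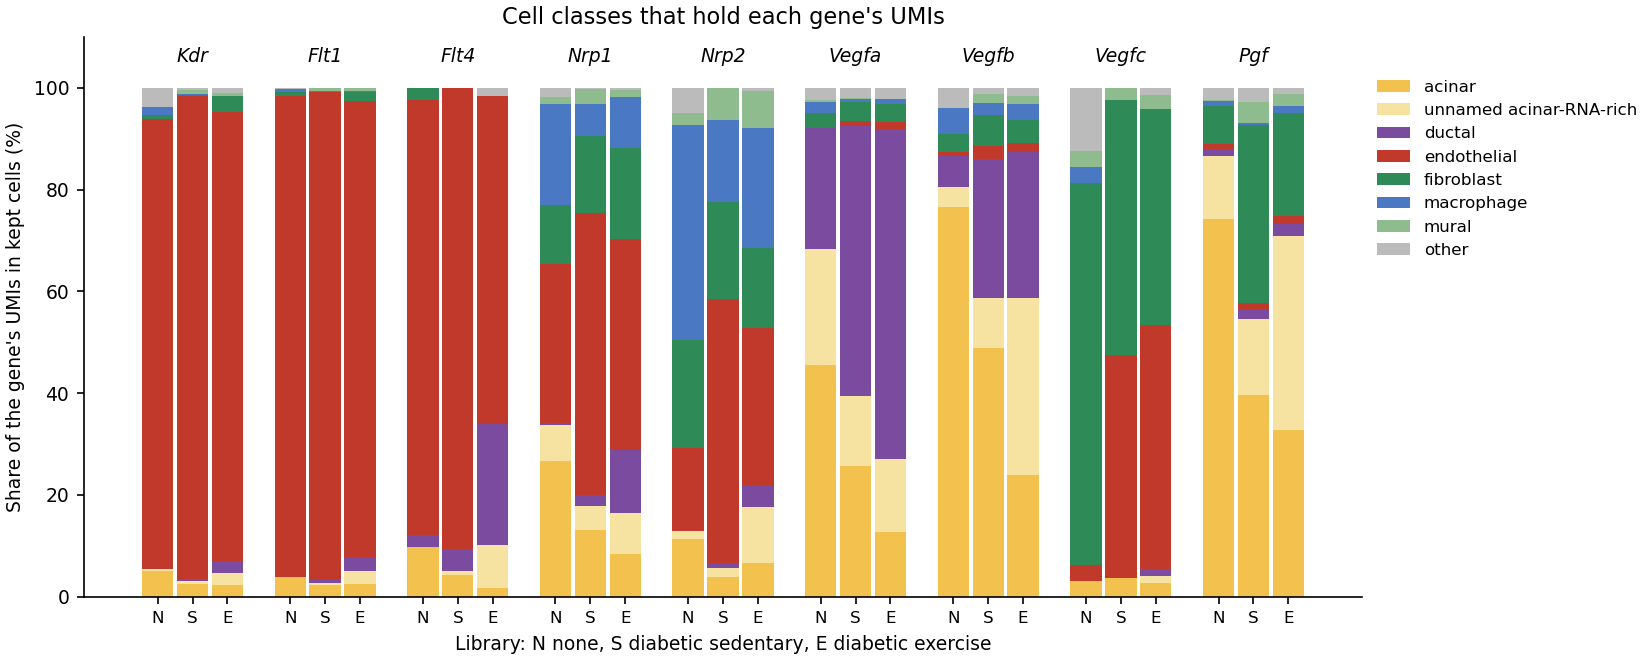
Share of each gene's UMIs in kept cells held by each cell class, in percent, with 1 bar per gene and library (N none, S diabetic sedentary, E diabetic exercise). Kdr and Flt1 bars are over 88% endothelial-like in every library, while Vegfa passes from mostly acinar-like and acinar-RNA-rich cells in none to 64.8% ductal-like in exercise.

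Vegfa, the main ligand of VEGFR2, was highest in ductal-like cells among the 6 large classes. Its level there was 143 CPM (123 to 166), 112 (104 to 121) and 152 (143 to 162), from 173, 642 and 953 UMIs. The diabetic sedentary library was the low one, with a ratio of 0.785 (0.663 to 0.934) over none and 1.36 (1.22 to 1.5) for exercise over diabetic sedentary, both short of 1.5-fold. The second passed it by total UMIs, at 1.53, and after thinning to 1000 UMIs per cell, at 1.69. At least 1 Vegfa UMI was in 43.6%, 40.1% and 39.6% of ductal-like cells at median depths of 5247, 5499 and 3148.5 UMIs. After thinning to 1000 UMIs the shares were 10.4%, 8.8% and 14%. Acinar-like cells, by comparison, had Vegfa in 4.80%, 4.45% and 5.05% of cells with all UMIs. After thinning to 1000 UMIs their shares were 0.684%, 0.698% and 2.02%.

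Both ductal-like clusters showed the exercise difference. In cluster 6, led by Spp1, Ambp and Ces1d, Vegfa was 143, 126 and 189 CPM, a ratio of 1.49 (1.33 to 1.68) for exercise over diabetic sedentary. Cluster 12, led by Onecut2, Tspan8, Sfn and Krt19, held 1, 195 and 356 cells. Vegfa there was 71.4 and 103 CPM in the diabetic libraries, a ratio of 1.45 (1.15 to 1.83). With 1 cell of cluster 12 in none, the whole-class ratio of diabetic sedentary over none compares different mixes of these clusters. The part of that mix in the ratio was not tested. Ductal-like cells were 202, 778 and 1132 in number and held 23.8%, 53.0% and 64.8% of all Vegfa UMIs of kept cells. In the islet-hormone cluster Vegfa was 61.6 CPM (24.8 to 127), 40.5 (25.1 to 61.9) and 146 (97.7 to 210), from 7, 21 and 29 UMIs in 6, 67 and 15 cells.

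Lower Vegfa levels were found in the other classes. Fibroblast-like cells had 25.7 CPM (15.9 to 39.3), 23.4 (17.0 to 31.4) and 49.1 (36.7 to 64.4), a ratio of 2.10 (1.38 to 3.21) for exercise over diabetic sedentary. In their Pi16 and Fbn1 cluster the levels were 32.6, 67.2 and 97.6 CPM. Acinar-like cells had 9.49 CPM, 7.45 and 11.6, with ratios of 0.785 (0.670 to 0.919) and 1.55 (1.29 to 1.87). By total UMIs the second was 3.06, and after thinning the first was 1.09. In acinar-like cluster 4, which held 1586 and 1924 cells of the diabetic libraries, the second ratio was 0.893 (0.706 to 1.13). Endothelial-like cells held only 1, 12 and 20 Vegfa UMIs, of which 8 in exercise were in the 16 cells of the Klk10 and Gja5 sub-cluster.

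Vegfb, a ligand of VEGFR1 linked to fatty acid uptake in endothelium, had no class with a high level. It was 28.9, 32.7 and 26.3 CPM in ductal-like cells, 25.7, 21.8 and 24.5 in fibroblast-like cells and 25.3, 15 and 20.6 in macrophage-like cells. In acinar-like cells it was 12.6 CPM (11.5 to 13.9), 7.98 (7.14 to 8.88) and 8.54 (7.18 to 10.1), a ratio of 0.632 (0.547 to 0.731) for diabetic over none, which was 0.863 after thinning. Because acinar-like cells are so many, they still held 76.5%, 48.8% and 24.0% of the Vegfb UMIs.

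Vegfc, the ligand of VEGFR3, came from fibroblast-like and endothelial-like cells. Fibroblast-like cells had 24, 41 and 31 UMIs, or 29.4 CPM (18.8 to 43.7), 21.8 (15.7 to 29.6) and 29.3 (19.9 to 41.5), with overlapping intervals. Endothelial-like cells had 1, 36 and 35 UMIs, or 2.75 CPM (0.0697 to 15.3), 19.1 (13.4 to 26.5) and 36.5 (25.4 to 50.8). The exercise over diabetic sedentary ratio there was 1.91 (1.17 to 3.13), but 0.861 with sub-clusters weighted as in diabetic sedentary, a weighting that leaves out the 16-cell sub-cluster. Vegfc was 172 CPM (89.0 to 301), from 12 UMIs, in that sub-cluster and 97.5 CPM (56.8 to 156), from 17 UMIs, in the Gja4 and Rgs5 sub-cluster of diabetic sedentary. The lymphatic endothelial-like cells held 0 Vegfc UMIs.

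Pgf encodes placental growth factor, which binds VEGFR1. It was steady in fibroblast-like cells, at 67.3 CPM (50.7 to 87.6), 67.1 (55.9 to 79.9) and 62.3 (48.2 to 79.3). In acinar-like cells it was 15.5 CPM (14.2 to 16.8), 3.40 (2.87 to 4.01) and 6.62 (5.43 to 8.01), from 540, 142 and 107 UMIs. There the ratio was 0.22 (0.181 to 0.265) for diabetic over none and 1.95 (1.5 to 2.52) for exercise over diabetic sedentary. The second ratio depends on the scaling, at 3.83 by total UMIs and 3.0 after thinning to 1000 UMIs per cell. The none library was the high one, and its acinar-like cluster 5 alone held 332 Pgf UMIs in 1934 cells, at 23.4 CPM. In the cluster shared by the diabetic libraries, cluster 4, Pgf was 5.36 and 9.13 CPM, a ratio of 1.71 (1.19 to 2.46). Pgf followed the same order of libraries in other classes at low counts: 7.44, 1.05 and 1.28 CPM in ductal-like, 6.12, 0.936 and 4.57 in macrophage-like and 19.3, 2.65 and 5.22 in endothelial-like cells. The part of free acinar RNA in those values was not tested.

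**Figure D4:**
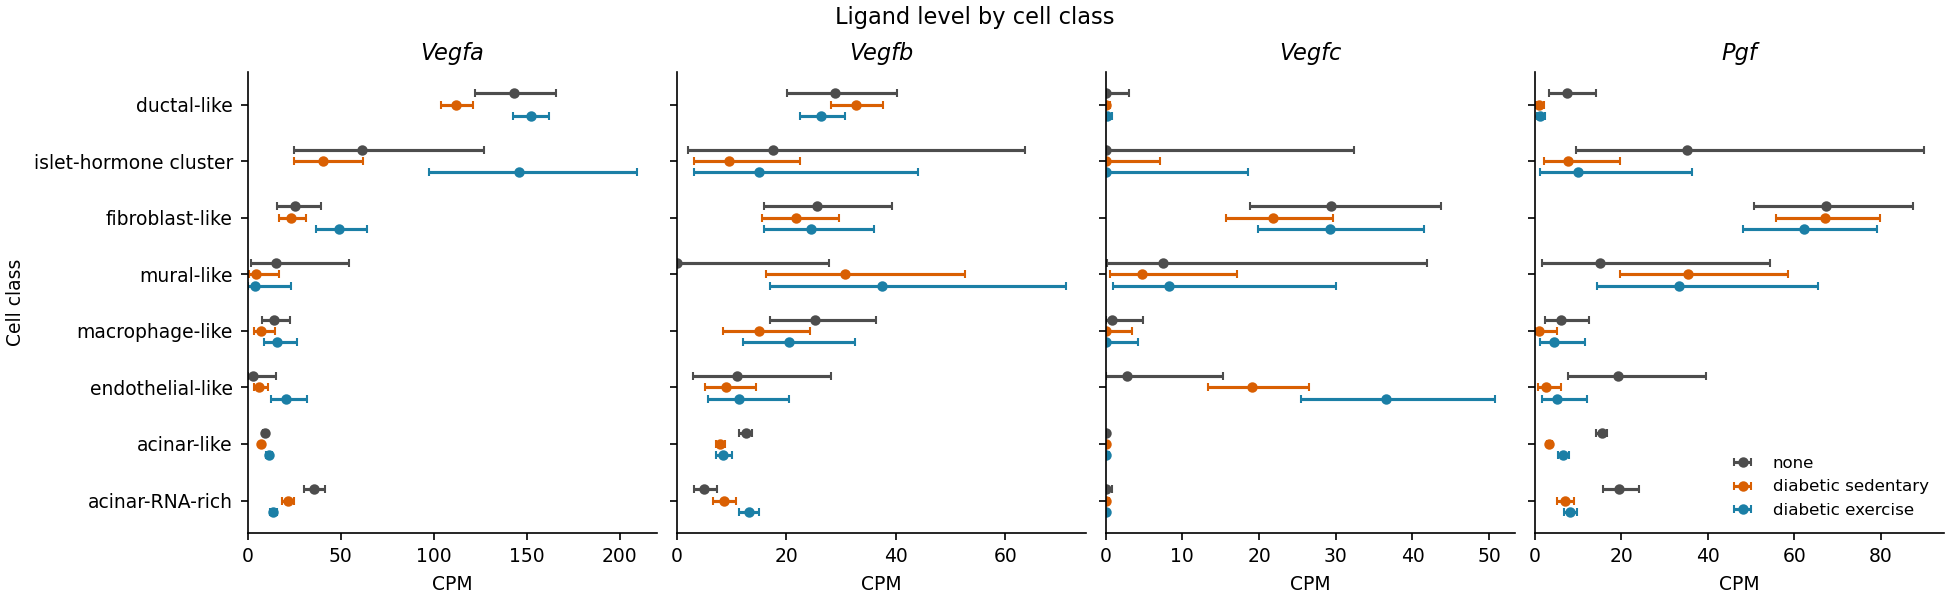
Level of the 4 ligand genes in 8 cell classes (CPM, with Poisson 95% intervals), 1 colour per library. Vegfa is highest in ductal-like cells and in the islet-hormone cluster, Vegfc in fibroblast-like and endothelial-like cells, and Pgf in fibroblast-like cells.

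Genes downstream of VEGFR2 were read in endothelial-like cells from lists chosen for the pathway. Of 25 measured genes of VEGF receptor signalling, 3 were at least 1.5-fold higher and 4 at least 1.5-fold lower in exercise than in diabetic sedentary, near the 11.7% and 16.2% of all genes, with a median log2 ratio of -0.08 against -0.07 over all genes. Nos3, the endothelial nitric oxide synthase, had a ratio of 1.55 (1.09 to 2.18). For diabetic over none, 7 of 25 were higher and 2 lower, beside 21.1% and 13.9% of all genes, with Mapk14 at 2.93 (1.20 to 9.29), Nos3 at 2.20 (1.02 to 5.66) and Pik3r1 at 0.629 (0.390 to 1.05).

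Genes known to respond to VEGF leaned one way, but this list, like the others, was chosen with earlier results of these data known. Of 19 measured, 13 were at least 1.5-fold lower and 1 at least 1.5-fold higher in exercise than in diabetic sedentary, beside 16.2% and 11.7% of all genes, and the median log2 ratio was -0.92 against -0.07. Angpt2, an antagonist ligand of the Tie2 receptor, was 4.17 against 25.5 CPM, from 4 and 48 UMIs, 0.164 times as much (0.043 to 0.447). The tip-cell actin bundler Fscn1 was 18.8 against 85.5 CPM, a ratio of 0.22 (0.127 to 0.359). Named after their values were seen, the basement membrane collagens Col4a1 and Col4a2 had ratios of 0.480 (0.426 to 0.541) and 0.375 (0.319 to 0.437), and the nuclear receptor Nr4a1 0.389 (0.321 to 0.469). The highest with at least 50 UMIs were the tip-cell proteoglycan Esm1 at 1.30 (1.01 to 1.66) and Nr4a2 at 1.07 (0.720 to 1.57).

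Cluster 11 alone gave a smaller lean in the same direction. There 8 of 19 VEGF-responsive genes were at least 1.5-fold lower and 2 higher, beside 13.9% and 14.6% of all 7202 genes measured in that cluster, with a median of -0.51. In cluster 13 alone 5 of 10 were lower and 1 higher, beside 9.52% and 26.9% of 3151 genes. Within cluster 11, Col4a2 was at 0.580 (0.492 to 0.682), Nr4a1 at 0.400 (0.313 to 0.506) and Fscn1 at 0.351 (0.199 to 0.580), while Esm1 was at 2.06 (1.60 to 2.65). The whole-class counts between the sedentary libraries were 3 higher and 5 lower of 18, beside 21.1% and 13.9% of all genes. Esm1 was at 0.475 (0.356 to 0.641), Egr3 at 0.488 (0.354 to 0.679), Hlx at 3.46 (1.94 to 6.79) and Angpt2 at 1.54 (0.660 to 4.41) for diabetic over none.

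**Figure D5:**
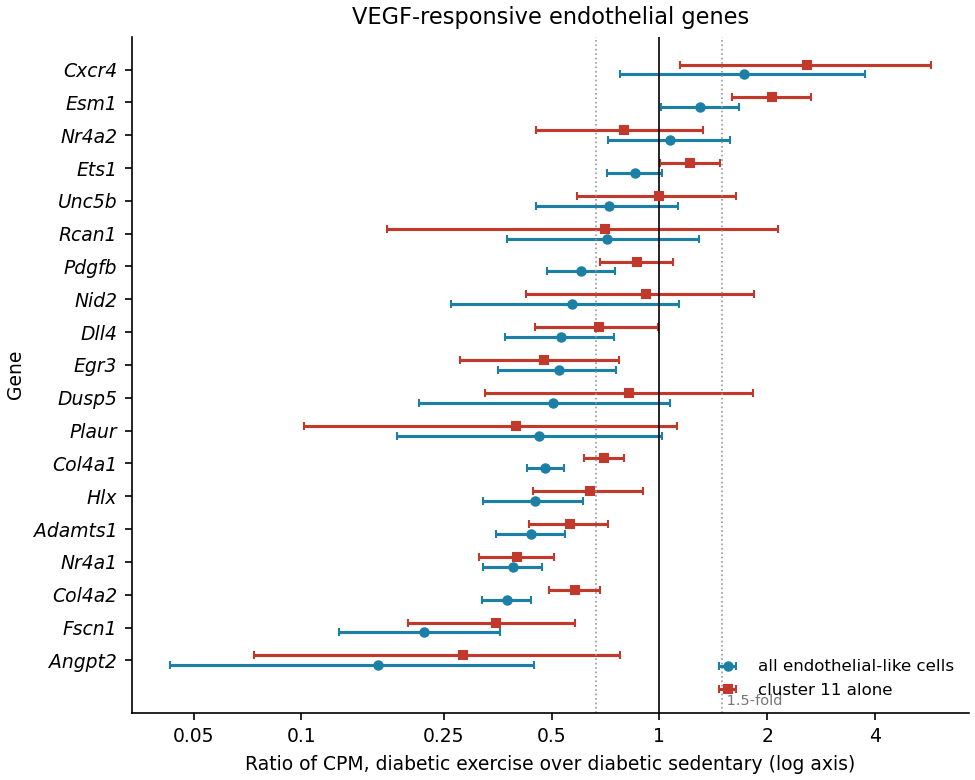
Ratio of exercise over diabetic sedentary for the 19 measured VEGF-responsive genes (log axis, conditional Poisson 95% intervals), in all endothelial-like cells and in cluster 11 alone; dotted lines mark 1.5-fold. In the whole class 13 of 19 genes lie past 1.5-fold on the low side, and in cluster 11 alone 8 do, with Esm1 and Cxcr4 past it on the high side.

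Cell type and stress lists were read against the same 16.2% lower and 11.7% higher of all genes, and in cluster 11 against 13.9% and 14.6%. Capillary markers were at least 1.5-fold lower in exercise for 8 of 10 genes, with Rgcc at 0.292 (0.260 to 0.328) and Car4 at 0.372 (0.304 to 0.453); in cluster 11 alone 2 of 10 were lower, near that cluster's background. Artery markers were higher for 7 of 14 and lower for 0, with Cytl1 at 14.4 (10.8 to 19.5) and Bmx at 10.5 (5.09 to 24.3). Cluster 13 held 394 of the 395 Cytl1 UMIs and 44 of the 48 Bmx UMIs of the exercise library. In cluster 11 alone 5 of 12 artery markers were higher and 0 lower. In cluster 13 alone 13 of 13 were higher, beside 26.9% of all genes measured there. The sub-cluster of 16 cells found in exercise alone held 1957 of the 3797 artery marker UMIs of that library's endothelial-like cells. Its part in these counts was not tested. Immediate early genes, which tissue dissociation can induce and which overlap with VEGF responses, were lower for 11 of 18, and in cluster 11 alone for 10 of 17. Among them Ier3 was at 0.404 (0.343 to 0.474) and Btg2 at 0.409 (0.366 to 0.455), with Fosb at 1.40 (1.18 to 1.66). Their part in the values of Nr4a1 and Egr3 was not tested. Endothelial identity genes stayed closer, with 1 of 15 higher (Cldn5, a junction protein, at 2.68) and 2 lower (Cd93 at 0.497 and Emcn at 0.622), and Pecam1 was at 1.21 (1.12 to 1.30).

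Partners of the VEGF system were read in exercise over diabetic sedentary beside the 11.7% of all genes that were higher and the 16.2% that were lower. Of 4 angiopoietin and Tie genes only Angpt2 was past it; the receptors Tie1 and Tek were at 0.939 (0.767 to 1.14) and 1.03 (0.847 to 1.25). Of 8 semaphorin and plexin genes 2 were higher and 1 lower, the lower one being the plexin Plxna2 at 0.577 (0.469 to 0.704). The ligand Sema3g, at 1.47 (1.13 to 1.91), was short of it. Of 10 Notch genes 2 were higher and 2 lower: the ligand Dll4 was at 0.532 (0.370 to 0.749), the target Hes1 at 0.607 (0.475 to 0.769) and the ligand Jag1 at 1.79 (1.14 to 2.80). Of 19 hypoxia-response genes 1 was higher and 4 lower, with Ddit4 at 0.564 (0.360 to 0.860). Of 22 endothelial transcription factors 5 were higher and 2 lower, with Hhex at 2.62 (1.59 to 4.36), Ets2 at 0.611 (0.50 to 0.741) and the flow-responsive Klf2 at 0.651 (0.584 to 0.724). In cluster 11 alone 0 of 19 transcription factors, 0 of 9 Notch genes and 0 of 7 semaphorin and plexin genes were past 1.5-fold. Of all genes measured in that cluster, 14.6% were higher and 13.9% lower. The values that follow are again for the whole class. Pdgfb, which recruits pericytes, was at 0.605 (0.485 to 0.749) and its relative Pdgfd at 1.20 (0.806 to 1.76).

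The same lists were read for diabetic sedentary over none, where 21.1% of all genes were higher and 13.9% lower. Among 20 transcription factors 4 were higher and 1 lower, shares near or below those, with Sox18 at 3.92 (2.73 to 5.82), Sox17 at 3.50 (1.97 to 6.89) and Sox7 at 0.587 (0.362 to 0.986). Plxnd1, the semaphorin 3E receptor, was at 2.11 (1.30 to 3.64), and Hes1 at 0.605 (0.479 to 0.771). Of 10 capillary markers 2 were higher and 1 lower, near those shares. The 2 higher were the fatty acid transporter Cd36 at 6.19 (4.67 to 8.37) and Fabp4 at 1.80 (1.71 to 1.89), and the lower one was Esm1. Of 12 artery markers 7 were higher and 1 lower, with Mgp at 14.7 (5.67 to 54.2), from 304 and 4 UMIs, and Clu at 0.516 (0.438 to 0.609). Of 19 hypoxia-response genes 2 were higher and 1 lower.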

How the data were processed

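The authors deposited raw UMI counts per gene and barcode for each library, made with Cell Ranger (version 7.1.0 per the submitters' processing notes, 6.1.2 per the file headers). Library kits were 10x 3-prime version 3, per the labels' protocols. The labels used here name no genome build. All 55450 identifiers and symbols in the tables match GENCODE M21 (GRCm38), which gave gene positions.

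Barcodes with at least 500 UMIs, 200 genes and at most 20% mitochondrial UMIs were kept. The Scrublet threshold marked at most 0.0109% of barcodes, so the top 5% by score were removed as likely doublets. Cells were clustered together with scanpy 1.11.5 (2000 variable genes without the 9 members, 30 components, 15 neighbours, Leiden resolution 1, leidenalg 0.10.2, seed 1), with no batch integration. A cluster was called X-like when at least 2 of its 10 leading genes were markers of that class, more than of others, and at least 3 markers were in 10% of cells. Clusters rich in acinar RNA were also ranked against those low in it, and this second ranking could give only the acinar name. Other clusters, and those led largely by mitochondrial genes, stayed unnamed.

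UMIs were summed per class and library and scaled by TMM (edgeR 4.0.16, R 4.3.3) for classes with at least 50 cells in each library, and by total UMIs otherwise. Parts of a class use its TMM factor. Endothelial factors were 0.841, 1.08 and 1.10. Log2 values add a prior of 0.5 UMIs. Ratios carry exact conditional Poisson intervals. With 1 library per group no p-value was computed, and "higher" and "lower" describe these libraries. A size rule of 1.5-fold and a minimum of 20 UMIs over both libraries define the list counts. The calculation was tested on simulated data.

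The members and the 12 gene lists were chosen with earlier results of these data known. Genes named from a list are, unless stated, up to 2 at each end of the ratios among those with at least 50 UMIs. The genes most like a member were picked by Pearson correlation. Some genes that this rule names are not reported here. Other tools were Python 3.11.15, numpy 2.4.6, scipy 1.17.1 and pandas 2.3.3.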

Additional observations from a re-analysis of the deposited data

Results flagged for a closer look

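In 2 genes the exercise over diabetic sedentary difference went in opposite directions in 2 cell classes; neither difference between classes was tested, since each group has 1 library. Kdr had a ratio of 8.87 (3.63 to 26.1) in fibroblast-like cells, from 30 and 6 UMIs, and 0.562 (0.520 to 0.607) in endothelial-like cells. Flt1 had a ratio of 18.6 (4.55 to 164) in fibroblast-like cells, from 21 and 2 UMIs, and 0.510 (0.477 to 0.545) in endothelial-like cells. The 30 Kdr UMIs of the exercise library lay in 10 of 213 fibroblast-like cells, with up to 10 in 1 cell. Of them 20 were in cells that also held at least 3 UMIs of endothelial marker genes, as were 12 of the 21 Flt1 UMIs.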

How the results depend on the processing

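No paired analysis was possible because each group has 1 library, and for the same reason no library could be left out. Values here are log2 ratios, with the reported one in brackets, and S/N stands for diabetic sedentary over none and E/S for exercise over diabetic sedentary. Scaling by total UMIs moved the median of all genes in endothelial-like cells from 0.05 to 0.41 in S/N, with 38.6% of genes at least 1.5-fold higher and 5.29% lower rather than 21.1% and 13.9%, and in E/S from -0.07 to -0.04. For E/S it moved the median from -0.07 to 0.91 in acinar-like and from -0.02 to 0.16 in ductal-like cells. With total UMIs, S/N was 0.41 for Kdr (0.05), 0.49 for Flt1 (0.13) and 0.24 for Nrp1 (-0.12) in endothelial-like and -0.10 for Vegfa (-0.35) in ductal-like cells; E/S was 0.62 for Vegfa in ductal-like cells (0.44) and 1.94 for Pgf in acinar-like cells (0.96).

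A gate on endothelial markers in place of clusters gave S/N of 0.31 for Kdr, 0.36 for Flt1 and 0.19 for Nrp1, E/S of -1.0 for Kdr (-0.83) and -1.15 for Flt1 (-0.97), and -0.47 for Vegfa S/N in endothelial-like cells (0.69, from 12 and 1 UMIs), a change of sign. With doublets kept E/S was -0.70 for Kdr and -0.85 for Flt1, and with acinar RNA subtracted -0.71 and -0.85. Thinned to 1000 UMIs, S/N was 0.45 for Flt1 and -2.79 for Pgf in acinar-like cells (-2.18), and E/S was 0.76 for Vegfa in ductal-like and 1.58 for Pgf in acinar-like cells.

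With sub-clusters weighted as in diabetic sedentary, E/S was -0.055 for Kdr, -0.27 for Flt1, -0.089 for Flt4 (-0.72), 0.055 for Nrp1 (-0.55) and -0.22 for Vegfc (0.93), a change of sign, and S/N for Flt1 was -0.051. With the 2 clusters weighted, chosen after seeing the data as were all cluster-wise values, E/S was -0.23 for Kdr, -0.42 for Flt1 and -0.0052 for Nrp1. In cluster 11 alone E/S was -0.22 for Kdr, -0.42 for Flt1 and 0.010 for Nrp1, and S/N 0.015 for Flt1. In cluster 13 alone E/S was -0.67 for Kdr, -0.53 for Flt1, -1.45 for Flt4 and -0.31 for Nrp1, and S/N -0.30 for Kdr, 0.36 for Flt1, 0.44 for Flt4 (-0.56) and 1.33 for Nrp2 (0.47).

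E/S of Kdr, Flt1, Flt4 and Nrp2 stayed below 0 under all 18 settings each, and that of Nrp1 under 16. S/N of Kdr was above 0 under 14 of 18. Of the VEGF-responsive genes, S/N counts of 3 higher and 5 lower became 1 and 3 at 100 UMIs, 1 and 2 at 2-fold and 6 and 2 with total UMIs; the higher count was 1 with a prior of 5, and the lower count 3 in cluster 13. For E/S, counts of 1 higher and 13 lower became 0 higher at 100 UMIs, 0 and 8 at 2-fold, 2 and 8 in cluster 11, and 5 lower in cluster 13. In cluster 13 fewer of these genes were measured (10 for E/S, 7 for S/N). The cause of the other differences was not tested. The shares of all genes called at 100 UMIs, at 2-fold and with a prior of 5 are not given here. The counts under those settings therefore cannot be read against a background. Subtracting acinar RNA could not be applied to acinar-like cells, and libraries clustered apart gave no macrophage-like cluster in exercise. Depth limits Flt4, Nrp2, Vegfc, Vegfa and Pgf in endothelial-like cells, which rest on 1 to 147 UMIs in a library.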
